A study of Mus musculus with 45 samples.

Results

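The cytosolic heat shock proteins are described here through 10 genes of the mouse count table, chosen by symbol out of 28454 listed genes: Hspa1a and Hspa1b (inducible HSP70), Hspa8 (constitutive HSP70), Hsph1 (HSP110), Hsp90aa1 and Hsp90ab1 (HSP90), the co-chaperones Dnajb1 and Bag3, and the small heat shock proteins Hspb1 and Hspb8. All 10 were counted in all 45 libraries and passed the filter on low counts in every model. Messenger RNA was sequenced in 11 mammary tumour cell lines from transgenic mice in which the MMTV promoter, active in mammary epithelium, drives MYC. MYAZ16.1e, MYAZ12.3i and MYAZ6.6g were isolated from tumours of MMTV-cMYC mice and form the MYAZ subtype, while Myc310 is a single line from such a mouse with several tumours. LM1, LM2 and LM3 (the LM subtype) were recovered from the lungs of mice carrying Myc310 cells in the fat pad, and LM1-LM, LM2-LM and LM3-LM (the LM-LM subtype, written LM1_LM and so on in the labels) came from a further passage through the lung. The eleventh line is MYAZ12.3i labelled NDI1, the name of a yeast NADH dehydrogenase, and its construct is not described in the sources used here. Per the labels, every line was seeded at 250000 cells per well in the same serum-containing DMEM:F12 with insulin, hydrocortisone and EGF, and 24 h later received control medium. MYAZ16.1e, Myc310, LM1 and LM1-LM also received medium free of cysteine and cystine, for 6 h. Each line and condition has 3 libraries, described as technical replicates of a line, so p-values measure the spread between these cultures and not between tumours or mice.

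Heat shock proteins are chaperones that bind unfolded or aggregating proteins. HSP70 proteins act with J-domain partners such as DNAJB1, which deliver clients and stimulate ATP hydrolysis, and with nucleotide exchange factors such as HSPH1 and BAG3, while HSP90 proteins finish the folding of kinases and steroid receptors. HSPB1 and HSPB8 hold unfolded proteins without using ATP, and HSPB8 forms a complex with BAG3 and HSP70 that passes clients to autophagy. Many of these genes are induced by heat shock factor 1 (HSF1), which binds inverted repeats of the sequence GAA called heat shock elements, whereas Hspa8 and Hsp90ab1 are known as constitutively expressed.

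Promoter sequences show what these genes do and do not share. RefSeq promoter windows (GRCm38.p6, 250 bases before to 50 after the start) were at hand for 7 of the 10 genes, Hspa8, Hsp90aa1 and Hsp90ab1 being without one. An element of 2 units, searched on both strands as GAANNTTC or TTCNNGAA, lay in the windows of 6 of the 7 genes, against 15.1% of 32851 promoters. The form with 3 units, which extends either of these by the next inverted unit after 2 free bases and so contains both, lay in the window of Hsph1 alone, just after its start, against 0.603% of promoters. In Hspa1a and Hspa1b the element begins 104 bases before the start, and in Hspb1 elements begin 117 and 97 bases before it. Hspb8 and Bag3 carry theirs after the start. No form was found in the window of Dnajb1, and none of the 7 genes held TGATGNAAN, the composite site of ATF4 and C/EBP factors, which lies in 3.95% of promoters. A match is a description of letters and not a bound site. The 150 bases before the start are printed for the pair of inducible HSP70 genes, which are near-identical copies, for Hspb1, which gave the opposite response to theirs in LM1 and LM1-LM, and for Dnajb1. In GRCm38.p6 the stretches are chr17:34972157-34972306 (Hspa1a, minus strand), chr17:34959239-34959388 (Hspa1b, minus strand), chr5:135887769-135887918 (Hspb1, plus strand) and chr8:83608025-83608174 (Dnajb1, plus strand). Capitals mark a heat shock element.
Hspa1a: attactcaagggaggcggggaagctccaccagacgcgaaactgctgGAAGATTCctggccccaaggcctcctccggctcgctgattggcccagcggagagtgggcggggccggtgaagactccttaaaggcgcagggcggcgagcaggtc
Hspa1b: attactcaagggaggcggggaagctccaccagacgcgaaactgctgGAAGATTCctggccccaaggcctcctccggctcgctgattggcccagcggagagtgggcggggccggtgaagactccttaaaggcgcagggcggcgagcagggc
Hspb1: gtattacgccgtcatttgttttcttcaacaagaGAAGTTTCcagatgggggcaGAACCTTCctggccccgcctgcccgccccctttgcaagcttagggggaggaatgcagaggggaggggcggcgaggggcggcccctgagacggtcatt
Dnajb1: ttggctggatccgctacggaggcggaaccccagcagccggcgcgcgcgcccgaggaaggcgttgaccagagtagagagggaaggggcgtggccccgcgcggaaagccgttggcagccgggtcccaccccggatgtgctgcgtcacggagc

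The printed stretches of Hspa1a and Hspa1b differ at 1 base. The 2 genes lie next to each other on chromosome 17 (GRCm38; 34969190 to 34972156 and 34956436 to 34959238, minus strand), each is annotated with 1 exon, and their coding sequences are identical at 1915 of 1923 aligned bases. Of all stretches of 100 bases in the transcript, the requested read length, 47.07% for Hspa1a and 49.93% for Hspa1b occur in the other gene too. The split of reads between them is therefore uncertain, and their sum is also given. Gm20481 overlaps Hspa1a on the other strand.

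The levels of the 10 genes span a wide range. Per kilobase of annotated exon, Hsp90ab1 had the highest mean level in LM1 in control medium, at 1507 CPM (counts scaled to library size) per kb. Hspa8 followed at 719.1 and Hsp90aa1 at 521.5 CPM per kb. Hspb1 stood at 101.7, Hsph1 at 75.5, Bag3 at 55.8 and Hspb8 at 35.2 CPM per kb. The exon union of Hsph1 over all isoforms is 7266 bases, against 3802 for its longest coding transcript. The order of Hspb1 and Hsph1 therefore depends on which length is used. Dnajb1 at 17.3, Hspa1b at 16.4 and Hspa1a at 6.58 CPM per kb were lowest. All 10 genes together took 1.07% of the counts in LM1 in control medium (10650 ± 129.4 CPM, SD, n = 3).

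Counts on genes ranged from 19517859 to 29019988 per library (median 22899900). The labels call these mammary tumour lines. Of 10 epithelial markers 6, Epcam and Cdh1 among them, were under 1 CPM in all 45 libraries, and the summed list ran from 333.3 to 2380 CPM, mostly Krt8 and Krt18. It was 1096 to 1124 CPM in LM1 controls and 1376 to 1413 CPM after deprivation. Leukocyte markers summed to 30.4 to 32.6 CPM in LM1 controls and 63.8 to 69.2 CPM after deprivation, mostly Cd14 (21.7 to 53.5 CPM), with Ptprc, the defining marker, at 0 in both. The same sum was 41.2 to 43.3 and 69.0 to 70.8 CPM in Myc310, and 34.6 to 39.0 and 47.6 to 51.8 CPM in MYAZ16.1e. Fibroblast markers summed to 15.57 to 17.98 CPM in LM1 controls and 10.9 to 11.8 CPM in deprived LM1, and endothelial markers to 18.8 to 20.4 and 13.9 to 14.3 CPM. In LM1-LM, control and deprived, the fibroblast sum was 59.27 to 65.17 and 27.89 to 30.37 CPM, the leukocyte sum 31.87 to 34.09 and 64.24 to 68.79 CPM, the epithelial sum 1011 to 1057 and 1315 to 1343 CPM and the endothelial sum 25.8 to 28.73 and 19.26 to 21.68 CPM. Alveolar epithelial markers were at most 6.72 CPM in any library. Across control lines the fibroblast sum ran from 1.74 CPM in Myc310 to 223.4 CPM in LM3-LM. The part of these lists in the values that follow was not tested.

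Without cysteine and cystine for 6 h, HSP70 mRNA fell in all 4 lines, whereas the small heat shock proteins moved differently from line to line. In MYAZ16.1e, 10 of the 10 genes were lower, where 27.1% of the 13400 genes tested were called lower by edgeR's quasi-likelihood test (adjusted p below 0.05). In Myc310, 8 were lower (33.9% of all genes) and Hspb1 and Hspb8 did not pass the test. In LM1, 6 were lower (35.3% of all genes) and 4 were higher (35.8%). In LM1-LM, 6 were also lower (35.9%) and 4 higher (36.5%). The median log2 fold change of the 10 genes was lowest in MYAZ16.1e (-0.46) and Myc310 (-0.32), with -0.24 measured for LM1 and -0.22 for LM1-LM, against medians of all genes between -0.01 and 0.00. Their summed level dropped to 7383 ± 93.26 CPM in LM1 (0.738% of counts), and the share of Hspa8 in that sum went from 29.04% to 15.72%. In bulk RNA, fewer cells of a type and less RNA per cell cannot be told apart.

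**Figure D1:**
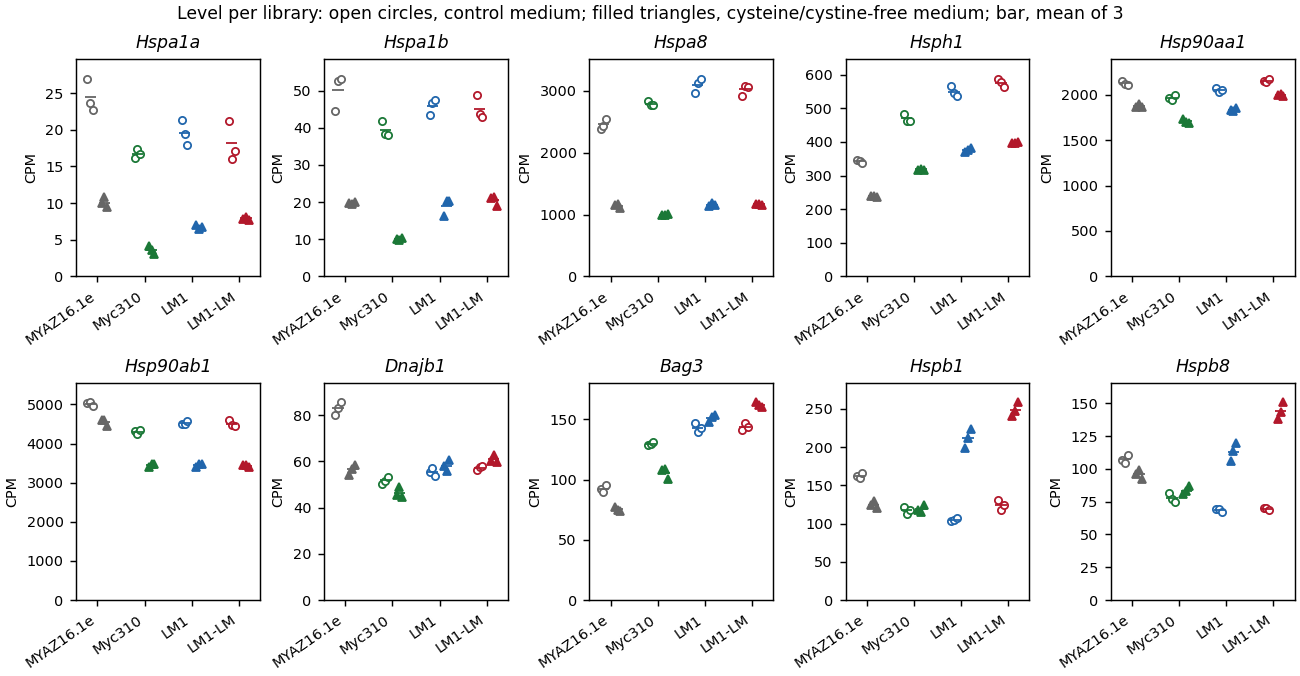
Level of each gene in CPM (y axis, from 0) in each of the 24 libraries of the 4 lines (x axis), with open circles for control medium, filled triangles for medium without cysteine and cystine, and bars for the mean of 3. Hspa1a, Hspa1b and Hspa8 lie lower without cystine in all 4 lines, while in LM1 the highest Hspb1 control is 107.4 CPM and the lowest deprived value 199.2 CPM.

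With Hspa1a and Hspa1b taken as counted, the largest fall among the 10 genes was that of Hspa1a in Myc310 and LM1, that of Hspa1b in MYAZ16.1e and that of Hspa8 in LM1-LM. Hspa1a stood at 16.13, 17.42 and 16.73 CPM in the Myc310 controls and at 4.163, 3.591 and 3.077 CPM in the deprived cultures. Hspa1b stood at 41.82, 38.36 and 37.99 CPM in the same controls and at 10.00, 9.747 and 10.33 CPM after deprivation. These groups did not overlap, and the lowest library still held 70 counts of Hspa1a. Hspa1a was 4.68-fold lower (log2 fold change -2.23 ± 0.12, SE, edgeR adjusted p = 7.89e-17) and Hspa1b 3.97-fold lower (-1.99 ± 0.08) in Myc310, where they ranked 108 and 141 from the lowest among 13400 genes. Their summed counts fell by 2.06 in Myc310, by 1.33 in MYAZ16.1e, by 1.31 in LM1 and by 1.12 in LM1-LM on the log2 scale, and edgeR called each fall. In LM1, as in LM1-LM, the summed fall was smaller than that of Hspa8. The ratio of Hspa1b to Hspa1a counts ran from 1.65 to 3.36 over all libraries.

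Hspa8, the constitutive HSP70 of chromosome 9 (40800984 to 40810087, plus strand), carried most of the lost counts. It measured 2959, 3127 and 3192 CPM in the LM1 controls and 1143, 1187 and 1151 CPM in the deprived cultures. The control level was lower in MYAZ16.1e, at 2379, 2438 and 2549 CPM, and the deprived level there was 1146, 1164 and 1101 CPM. Deprived libraries of all 4 lines thus lay between 987.7 and 1187 CPM, a narrower band than the controls. Hspa8 was 2.60-fold lower in LM1 (-1.38 ± 0.03, edgeR adjusted p = 3.28e-27), 2.82-fold in Myc310 (-1.495 ± 0.028), 2.52-fold in LM1-LM (-1.34 ± 0.03) and 2.17-fold in MYAZ16.1e (-1.12 ± 0.03).

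Part of the Hspa8 reads may sit on a pseudogene. Gm15459, a processed pseudogene on chromosome 5 (5781615 to 5783555, minus strand), was listed with 62.9% to 70.8% as many counts as Hspa8 in every library, and 58.5% of the 100-base stretches of the Hspa8 transcripts also occur in it. With the counts of Gm15459 and 4 smaller pseudogenes added to Hspa8, an alternative chosen after the values were seen, the log2 fold change was -1.38 in LM1, -1.33 in LM1-LM, -1.48 in Myc310 and -1.11 in MYAZ16.1e. The small nucleolar RNAs Snord14c, Snord14d and Snord14e overlap Hspa8 as well. Hsp90aa1 and Hspb1 also have processed pseudogenes, which held at most 0.488% and 1.53% as many counts as their parents. No shared stretch was found for Hspb8, Hsph1, Bag3, Dnajb1 or Hsp90ab1.

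Of the partners of HSP70, Hsph1 fell in all 4 lines. Its level dropped from 566.3, 544.9 and 535.5 CPM to 370.7, 375.1 and 381.9 CPM in LM1, and from 347.2, 344.4 and 336.7 CPM to 239.8, 240.0 and 235.9 CPM in MYAZ16.1e. The log2 fold changes lay between -0.50 ± 0.02 in LM1-LM and -0.58 ± 0.02 in Myc310, with no overlap of control and deprived libraries in either of these or in LM1 and MYAZ16.1e.

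Dnajb1 and Bag3 differed in direction between lines. Dnajb1, a J-domain protein, measured 80.16, 83.10 and 85.45 CPM in the MYAZ16.1e controls and 54.28, 56.83 and 58.25 CPM after deprivation (-0.56 ± 0.04). In LM1 it measured 55.37, 57.22 and 53.78 CPM in controls and 58.08, 55.95 and 60.46 CPM in deprived cultures, which overlap, and the call in edgeR was marginal (0.10 ± 0.04, adjusted p = 0.032). That call was lost under 8 of 12 alternatives, among them without the first or without the third replicate of each group, and the corresponding call in LM1-LM (0.12 ± 0.04, adjusted p = 0.0109) under 4, among them without the first or without the second replicate. Bag3, an exchange factor of HSP70, went from 91.93, 89.40 and 95.61 CPM to 76.89, 74.61 and 74.18 CPM in MYAZ16.1e (-0.30 ± 0.03) and from 141.0, 146.9 and 143.5 CPM to 164.0, 161.5 and 160.2 CPM in LM1-LM (0.21 ± 0.03). Its increase in LM1 (0.12 ± 0.03, adjusted p = 0.00136 in edgeR) was lost with upper-quartile scaling (0.04) and without the second replicate of each group. In Myc310 both fell in edgeR, Dnajb1 by 0.18 ± 0.04 on the log2 scale (adjusted p = 0.000799) and Bag3 by 0.31 ± 0.03 (adjusted p = 7.04e-10).

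Both HSP90 genes were lower in all 4 lines, by small amounts. Hsp90ab1, the constitutive form on chromosome 17, went from 4494, 4489 and 4571 CPM to 3401, 3482 and 3472 CPM in LM1 (-0.35 ± 0.02), and the libraries did not overlap. Its change was -0.33 ± 0.02 in Myc310, -0.36 ± 0.02 in LM1-LM and -0.15 ± 0.02 in MYAZ16.1e. Hsp90aa1, the inducible form on chromosome 12, was lower by 0.12 ± 0.02 in LM1, 0.07 ± 0.02 in LM1-LM, 0.19 ± 0.02 in MYAZ16.1e and 0.22 ± 0.02 in Myc310 on the log2 scale. These falls of Hsp90aa1, of at most 1.16-fold, passed the test, with libraries at 2071, 2028 and 2051 CPM in the LM1 controls and 1826, 1824 and 1856 CPM in the deprived ones.

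The small heat shock proteins rose in LM1 and in LM1-LM, which was derived from it. No other line recovered from lung was deprived. Hspb1 measured 102.7, 104.7 and 107.4 CPM in the LM1 controls and 199.2, 211.6 and 223.6 CPM after deprivation, a 2.07-fold rise (1.05 ± 0.04, edgeR adjusted p = 6.45e-20). In LM1-LM it went from 130.5, 117.6 and 124.0 CPM to 240.0, 247.2 and 258.3 CPM, a 2.06-fold rise (1.04 ± 0.04). Neither pair of groups overlapped. In Myc310, the parent of LM1, Hspb1 measured 121.5, 111.8 and 118.1 CPM in controls and 118.3, 115.5 and 123.7 CPM without cystine, which overlap (0.01 ± 0.04, edgeR adjusted p = 0.831). In MYAZ16.1e it dropped from 162.5, 159.6 and 165.8 CPM to 123.8, 129.6 and 120.0 CPM (-0.39 ± 0.04), so the line with the highest control level of the 4 ended close to Myc310.

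Hspb8 also rose in LM1 and LM1-LM. It went from 69.91, 70.30 and 68.79 CPM to 137.8, 143.5 and 150.6 CPM in LM1-LM, 2.12-fold (1.08 ± 0.04, edgeR adjusted p = 3.37e-20), and from 69.19, 69.64 and 66.87 CPM to 106.1, 113.5 and 119.8 CPM in LM1, 1.69-fold (0.76 ± 0.04). In MYAZ16.1e it fell by 0.17 ± 0.04 on the log2 scale. In Myc310 it measured 81.50, 76.64 and 74.39 CPM in controls and 80.54, 83.20 and 86.59 CPM in deprived cultures, which overlap (0.09 ± 0.04, edgeR adjusted p = 0.0624). This value passed the test under 4 of 12 alternatives, one of them without the first replicate of each group.

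**Figure D2:**
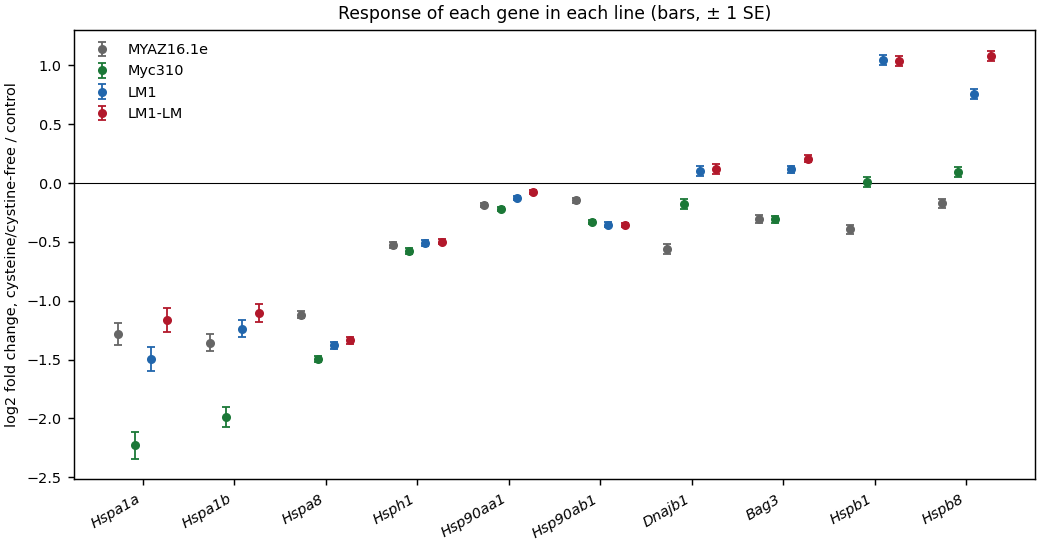
Log2 fold change of each gene (x axis) between medium without cysteine and cystine and control medium (y axis), with a point for each of the 4 lines, bars of ± 1 SE and a line at 0. Values for Hspa1a, Hspa1b, Hspa8, Hsph1, Hsp90aa1 and Hsp90ab1 lie below 0 in all 4 lines, while those of Hspb1 run from -0.39 in MYAZ16.1e to 1.05 in LM1.

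The responses themselves were compared between lines as interaction contrasts of the same model, which share the control and deprived libraries of a line between contrasts. Against MYAZ16.1e, the response of LM1 differed for 7 genes, 5 of them in the higher direction (26.9% of all genes) and 2 in the lower (25.3%). The largest differences were those of Hspb1 (1.44 ± 0.06), Hspb8 (0.93 ± 0.06), Dnajb1 (0.66 ± 0.06) and Bag3 (0.42 ± 0.05), while Hspa8 (-0.26 ± 0.04) and Hsp90ab1 (-0.21 ± 0.03) fell further in LM1. The difference for Hsp90aa1 (0.06 ± 0.02, edgeR adjusted p = 0.036) was also lost without any 1 of the 3 replicates and turned to -0.02 with upper-quartile scaling. That setting moved the share of higher calls among all genes called, in either direction, from 51.5% to 41.0%. For LM1-LM against MYAZ16.1e, 8 genes differed, 6 higher (28.4% of all genes) and 2 lower (26.4%), with 1.43 ± 0.06 for Hspb1 and 1.26 ± 0.06 for Hspb8. Here upper-quartile scaling moved the share of higher calls among all genes called from 51.7% to 41.6%.

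Myc310 differed from MYAZ16.1e for 7 genes, 3 higher (19.8% of all genes) and 4 lower (20.4%). Hspa1a (-0.95 ± 0.15), Hspa1b (-0.63 ± 0.11), Hspa8 (-0.38 ± 0.04) and Hsp90ab1 (-0.18 ± 0.03) fell further in Myc310, whereas Hspb1 (0.40 ± 0.06), Dnajb1 (0.39 ± 0.06) and Hspb8 (0.27 ± 0.06) were on the higher side. LM1 differed from its parent Myc310 for 8 genes, all in the higher direction (14.5% of all genes), with Hspb1 at 1.04 ± 0.06, Hspa1b at 0.75 ± 0.11, Hspa1a at 0.73 ± 0.16 and Hspb8 at 0.67 ± 0.06. Without the third replicate of each group 5 passed, Hspa1a, Dnajb1 and Hsp90aa1 being lost. With upper-quartile scaling the share of higher calls among all genes called moved from 59.3% to 42.7%. LM1-LM differed from LM1 for 1 gene (0.328% of all genes were called higher), Hspb8, at 0.33 ± 0.06 (edgeR adjusted p = 0.00653), and 4 of the 10 had an unadjusted p under 0.05. Without the first or without the second replicate of each group no gene passed this last comparison, 2 having an unadjusted p under 0.05 in each case. Hsph1 passed none of these 5 tests, its differences lying between -0.05 ± 0.03 and 0.07 ± 0.03.

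In control medium the comparison was between the subtypes, with MYAZ as reference. Hsph1 had the largest difference of the 10 genes in LM and LM-LM, and Hspb1 in Myc310. It measured 308.4 to 342.8 CPM in the 3 MYAZ lines (line means), 469.5 CPM in Myc310, 548.9 to 737.4 CPM in the LM lines and 576.3 to 706.2 CPM in the LM-LM lines. Relative to MYAZ, Hsph1 was 2.02-fold higher in LM (1.01 ± 0.07, edgeR adjusted p = 1.01e-13), 1.97-fold in LM-LM (0.98 ± 0.07) and 1.44-fold for Myc310 (0.53 ± 0.09). Bag3 (108.8 ± 17.54 CPM over 3 MYAZ lines, 142.7 ± 1.492 over 3 LM lines and 140.8 ± 2.922 over 3 LM-LM lines, SD) and Hspa8 (2572 ± 189, 3124 ± 66.75 and 3122 ± 113.1 CPM) were also higher in LM and LM-LM, Bag3 by 0.39 ± 0.06 and 0.35 ± 0.06 and Hspa8 by 0.28 ± 0.03 and 0.26 ± 0.03 on the log2 scale. For Hsph1, Bag3 and Hspa8 every LM and LM-LM library lay above every MYAZ library, as did 13% and 13.1% of all genes. An exact permutation test over lines gave p = 0.1, the smallest that 3 against 3 lines allow. The LM and LM-LM lines all descend from Myc310, so they are not the independent lines this test assumes.

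Other members were lower. Hspb1 averaged 219.6 ± 58.83 CPM over the MYAZ lines, 143.1 ± 33.28 over LM and 114.9 ± 26.02 over LM-LM, 117.2 CPM being measured in Myc310. It was lower by 0.61 ± 0.14 in LM, by 0.95 ± 0.14 for LM-LM and by 0.91 ± 0.21 for Myc310 on the log2 scale. Hspa1a and Hspa1b, summed, averaged 73.41 ± 20.24, 55.42 ± 11.90 and 47.94 ± 13.94 CPM, and were called lower by 0.41 ± 0.14 in LM and 0.63 ± 0.14 in LM-LM on the log2 scale. Their line means overlapped with MYAZ (exact permutation p = 0.3 and 0.2 for LM and LM-LM). Hsp90ab1 was lower by 0.11 ± 0.03 in LM, 0.12 ± 0.03 for LM-LM and 0.15 ± 0.04 for Myc310, and Dnajb1 by 0.20 ± 0.07, 0.23 ± 0.07 and 0.55 ± 0.11 in the same order. Line means also overlapped with MYAZ for Dnajb1 in LM and LM-LM (exact permutation p = 0.2 and 0.3) and for Hspb1 in LM (exact permutation p = 0.2). Hsp90aa1 was called in Myc310 alone (-0.20 ± 0.05), a difference from the other subtypes that was not tested. Hspb8 gave -0.49 ± 0.22 in Myc310 and -0.09 ± 0.15 in LM, neither past the threshold, and -0.36 ± 0.15 in LM-LM (edgeR adjusted p = 0.0453), a call lost under 12 of 23 alternatives. The LM-LM line means of Hspb8 overlapped with those of MYAZ (exact permutation p = 0.3). Without LM2, the line with the highest Hspb8, the LM value was -0.44 and passed the test.

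For Myc310, 2 genes were called higher and 4 lower, where 23.8% and 27.1% of the 13795 genes tested were so called. For LM the members numbered 3 higher (30.3% of all genes) and 5 lower (30.5%). For LM-LM there were 3 (30.5%) and 6 (32.3%). These tests treat cultures of a line as replicates of a subtype. Neither they nor the fits by line that follow allow for the common descent of the LM and LM-LM lines from Myc310. With counts summed to 1 column per line, 3 genes passed for LM and 4 for LM-LM: Hsph1, Hspa8 and Bag3 in each, higher (11.3% and 12.8% of the 16017 genes tested in that fit), and Hspb1 in LM-LM, lower (13.6%). In that fit none of the 10 passed for Myc310 (8.92% of all genes in either direction), where 3 had an unadjusted p under 0.05. With line as a random block in voom, 3 genes passed for Myc310 (20.4% of all genes in either direction) and 5 for LM (34.5%). Without the third replicate of each line 5 passed for LM. The calls of Hspa1a and Hspa1b in LM were lost without LM2 and without MYAZ6.6g, and those of Hspa1b and Dnajb1 in LM without any 1 of the 3 replicates. In Myc310 the call of Bag3 was lost without the third replicate, and Hspa1a, Hspa1b and Hspa8 gained a call without MYAZ12.3i.

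**Figure D3:**
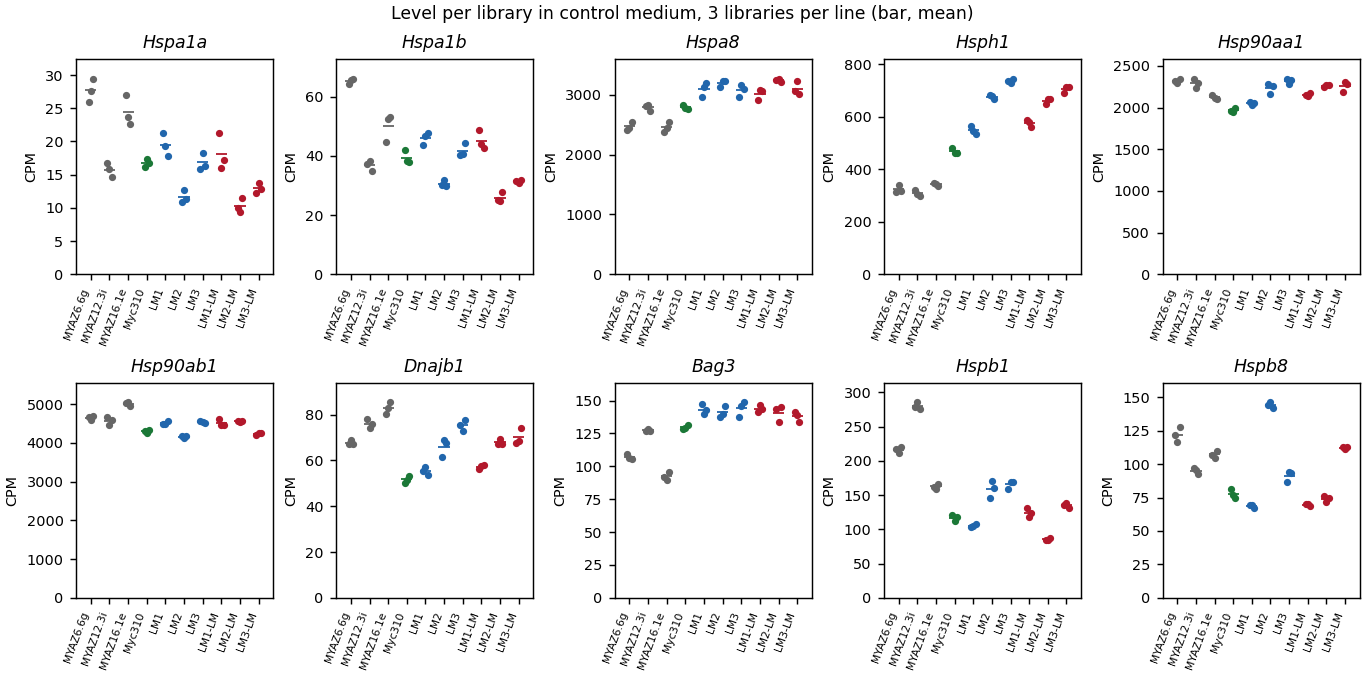
Level of each gene in CPM (y axis, from 0) in the 30 control libraries, 3 per line (x axis), with MYAZ lines in grey, Myc310 in green, LM lines in blue and LM-LM lines in red, and bars for line means. Every Hsph1 point of Myc310, LM and LM-LM lies above those of MYAZ, whose highest line mean was 342.8 CPM, whereas Hspb8 runs from 68.6 to 144.3 CPM (line means) within LM alone.

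Ordered by mean level over the 11 lines in control medium, the most spread gene was Hspb1, from 280.1 CPM in MYAZ12.3i to 85.6 CPM in LM2-LM (3.27-fold), and the least spread was Hsp90aa1, from 2318 CPM in LM3 to 1968 CPM in Myc310 (1.18-fold). Hspa1a ran from 27.7 CPM in MYAZ6.6g to 10.3 CPM in LM2-LM (2.69-fold), Hspa8 from 3244 CPM in LM2-LM to 2455 CPM in MYAZ16.1e (1.32-fold) and Hspb8 from 144.3 CPM in LM2 to 68.6 CPM in LM1 (2.10-fold). Of the 10 neighbouring pairs in each order, the ranges of 3 libraries overlapped in 8 for Hspa1a, Hspa8 and Hsp90aa1, in 7 for Hspa1b, Hsp90ab1 and Dnajb1, in 6 for Bag3, in 4 for Hspb8 and in 3 for Hsph1 and Hspb1. In the order of Hsph1 the lines LM3, LM3-LM, LM2 and LM2-LM came first and were apart from each other, and the MYAZ lines came last.

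In MYAZ12.3i labelled NDI1, 4 genes differed from the parent line, 2 higher (8.14% of 12841 genes) and 2 lower (9.27%), all by little. Hsph1 measured 321.3, 307.3 and 296.6 CPM in the parent and 363.5, 363.3 and 347.9 CPM in the NDI1 line (0.21 ± 0.03), without overlap. Hspb1 measured 278.6, 285.6 and 276.1 CPM in the parent and 253.7, 233.1 and 254.6 CPM in the NDI1 line (-0.19 ± 0.03), also without overlap. Dnajb1 (0.15 ± 0.04) and Hsp90aa1 (-0.08 ± 0.03) were past the threshold in the full set, but Hsp90aa1 was lost without any 1 of the 3 replicates and Dnajb1 without the first or the second, leaving 2 genes.

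Related chaperone genes were counted in lists that hold no member of the 10, to be read against the shares of all genes called, which in LM1 deprivation were 35.8% higher and 35.3% lower. Of the HSP90 co-chaperones, 13 of 14 fell and 1 rose in LM1 deprivation (median log2 fold change -0.52), with Ahsa2, an activator of the HSP90 ATPase, at -1.16 ± 0.05, Cacybp at -1.06 ± 0.03 and Sugt1, the exception, at 0.57 ± 0.04. In MYAZ16.1e 12 fell and 0 rose (27.1% of all genes fell), in Myc310 12 fell and 1 rose (33.9% fell), and in LM1-LM 13 fell and 1 rose (35.9% fell and 36.5% rose). Of the chaperonin TRiC, which folds actin and tubulin, 6 of 8 subunits fell and 1 rose in LM1, from Cct8 at -1.32 ± 0.03 and Cct3 at -0.60 ± 0.02 to Cct4 at 0.20 ± 0.02.

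Of further HSP70 proteins and partners, 11 of 24 tested were higher and 10 lower in LM1, near the shares of 35.8% and 35.3% of all genes. The J-domain genes Dnajb4 (38.4 to 174.9 CPM, 2.22 ± 0.05) and Dnajb5 (1.03 to 3.33 CPM, 1.72 ± 0.22) rose most, and Hspa12b (10.4 to 1.92 CPM, -2.41 ± 0.18) and Bag2, an exchange factor like Bag3 (75.0 to 25.1 CPM, -1.54 ± 0.05), fell most. In MYAZ16.1e 6 of the 24 rose and 11 fell, where 3560 of all 13400 genes rose and 27.1% fell. Among other genes listed by symbol as small heat shock proteins, 3 of 5 rose in LM1 and in LM1-LM and none fell. Hspb7 (0.79 ± 0.05) and Hspb11 (0.58 ± 0.12, at only 5.33 to 7.78 CPM) led them in LM1. In Myc310 2 of those 5 rose, Hspb7 by 0.47 ± 0.06 and Hspb11 by 0.58 ± 0.13, and none fell, where 4401 of all 13400 genes rose. In MYAZ16.1e 1 of the 5 fell and none rose.

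The mRNA of the heat shock factors Hsf1 and Hsf2 differed by little. Hsf1 measured 87.0 CPM in LM1 controls and 92.9 CPM after deprivation (0.13 ± 0.03), and gave 0.02 ± 0.03 in MYAZ16.1e, 0.06 ± 0.03 in Myc310 and 0.13 ± 0.03 in LM1-LM. Hsf2 gave -0.22 ± 0.06 in LM1 and -0.31 ± 0.06 in Myc310, and did not pass in MYAZ16.1e (-0.14 ± 0.06) or LM1-LM (-0.04 ± 0.06). Hsbp1, which binds HSF1, gave -0.20 ± 0.05 in LM1, -0.23 ± 0.05 in LM1-LM, -0.13 ± 0.05 in Myc310 and -0.02 ± 0.05 in MYAZ16.1e. Of the 5 genes tested from this list, Hsf4 and Hsf2bp included, edgeR called none in MYAZ16.1e, where 1 had an unadjusted p under 0.05. Of 23 known HSF1 target genes outside the 10, 10 were higher and 11 lower in LM1, against 35.8% and 35.3% of all genes. The highest of them, Sqstm1 (356.1 to 4118 CPM, 3.57 ± 0.03), encodes an autophagy receptor that other stress factors induce too, followed by Dnajb4, while Cacybp and Ptges3 (-1.04 ± 0.03), both HSP90 co-chaperones, fell most. Several genes stand on both this list and those above.

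Chaperones of the endoplasmic reticulum and mitochondria gave 5 higher and 6 lower of 12 in LM1, against the same shares. Hspa5 (BiP), the HSP70 of the endoplasmic reticulum, rose from 917.7 to 2758 CPM (1.62 ± 0.02) and Hspa9, the mitochondrial HSP70, from 1317 to 2960 CPM (1.20 ± 0.02), the opposite direction to Hspa8. Both also rose in MYAZ16.1e (0.43 ± 0.02 and 0.52 ± 0.02) and in Myc310 (1.14 ± 0.02 and 0.98 ± 0.02). Dnajb9, a J-domain partner of BiP, rose by 1.25 ± 0.08, the mitochondrial chaperonin genes Hspd1 and Hspe1 fell by 0.76 ± 0.02 and 0.65 ± 0.03, and the HSP90 forms Hsp90b1 (-0.09 ± 0.02) and Trap1 (0.07 ± 0.03) of these compartments moved little.

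In control medium, LM against MYAZ, 9 of 24 further HSP70 proteins and partners were higher and 9 lower, where 30.3% and 30.5% of all genes were called, and the counts that follow stand beside the same shares. Hspa12b (1.81 ± 0.22) and Hspa4l, an HSP110 relative of Hsph1 (1.00 ± 0.07), were highest, and Dnajb5 (-1.85 ± 0.21) and Hspa2 (-1.26 ± 0.19) lowest. Of the HSP90 co-chaperones 4 of 14 were higher and 4 lower, Ppp5c (0.28 ± 0.03) and Cdc37, which brings kinases to HSP90 (0.19 ± 0.05), being highest and Ahsa2 (-0.53 ± 0.06) lowest. TRiC had 2 higher and 1 lower of 8, Cct6a (0.26 ± 0.04), Cct7 (0.18 ± 0.07) and Cct4 (-0.37 ± 0.03). The other genes listed as small heat shock proteins had 3 higher and 1 lower of 5, with Hspb2 at 1.87 ± 0.34, Hspb7 at 1.85 ± 0.17 and Hspb6 at -1.06 ± 0.11. Among heat shock factors and genes named for binding them, 2 of 5 were lower and none higher. These were Hsf2bp at -2.07 ± 0.21 (line means from 0.9051 CPM in LM1 to 7.365 CPM in MYAZ12.3i) and Hsf2 at -0.16 ± 0.04. Hsf1 did not pass in LM (-0.15 ± 0.07) but was called lower than MYAZ in Myc310 (-0.32 ± 0.10) and LM-LM (-0.19 ± 0.07). HSF1 targets had 10 higher and 3 lower of 23, from Hspa4l and Dnaja4 (0.73 ± 0.10) to Ubb (-0.28 ± 0.03) and Serpinh1 (-0.36 ± 0.12), and the organelle counterparts 7 higher and none lower of 12, led by Dnajb9 (0.43 ± 0.08) and Dnajc3 (0.27 ± 0.06). Hspa5 and Hspa9 were at -0.03 ± 0.04 and 0.00 ± 0.04.

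The genes whose mean log2 CPM over the 15 groups of line and condition ran most like the members were taken from 9081 genes, as a description over groups that share lines. For Hspa8 they were its pseudogene Gm15459 (Pearson r = 1), Ppp2r1b (0.984) and Stip1, the HSP70-HSP90 organising protein (0.981). For summed Hspa1a and Hspa1b they were Ctnnbip1 (0.915), Ppih (0.902) and Chaf1a (0.897), for Dnajb1 Rangap1 (0.878), Plscr1 (0.872) and Safb (0.867), and for Hspb1 Pias4 (0.894), Akap13 (0.877) and Dcbld2 (0.856). Between members, Hspa1a and Hspa1b had r = 0.986 and Hspa8 and Hsp90aa1 r = 0.835, while Hspb1 had r = -0.173 with Hspa8.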

How the data were processed

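Polyadenylated RNA was sequenced as directional paired-end libraries from 45 cultures. The authors aligned the reads with STAR to the mouse genome (GRCm38) and quantified genes with RSEM in an nf-core pipeline. The submitters' processing notes also name R 4.2.2 and DESeq2 1.38.3. The authors deposited unnormalized counts, whole numbers for each gene, and whether counting used strand is not given in the sources used here.

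Counts were tested in R 4.3.3 with the quasi-likelihood F-test of edgeR 4.0.16 (TMM scaling, filterByExpr, 2-sided, Benjamini-Hochberg adjusted p below 0.05 over all genes tested). The 24 libraries of the 4 deprived lines and their controls were fitted as 8 groups (13400 genes), and differences between responses as interaction contrasts. The 30 control libraries were fitted by subtype (13795 genes) and the 6 libraries of MYAZ12.3i with and without NDI1 by line (12841 genes). Log2 fold changes carry the default prior count of edgeR, and the log2 CPM compared over groups a prior count of 2. SE was derived from the test, as the absolute log2 fold change divided by the square root of F, and is unreliable for changes near 0. CPM were computed over all 45 libraries after TMM scaling, and CPM per kb with the exon union of GENCODE M21. Line means were compared by a two-sided exact permutation test. The fitting code was tested on simulated counts with known changes. Alternatives were RLE and upper-quartile scaling, other filters, DESeq2 1.42.0, a replicate block, left-out replicates and lines, counts summed per line, limma 3.58.1 (voom) with line as random block, and other sets of samples. Adding pseudogene counts was chosen after the data were seen. The 10 genes and the lists were chosen with earlier results of these data known. From each list the text names the 2 largest increases and the 2 largest decreases past the threshold in LM1 deprivation and in LM against MYAZ, besides Hsf1, Hsf2, Hspa5, Hspa9, Hsp90b1 and Trap1. One result under this rule is not reported here. Replicates of a group differed by more than counting noise, so no library was counted as a duplicate.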

Additional observations from a re-analysis of the deposited data

Results flagged for a closer look

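Each value here is the difference between 2 lines in the log2 response to cysteine and cystine deprivation, from the interaction contrasts of edgeR with Benjamini-Hochberg adjustment over 13400 genes, and contrasts with a line in common share its libraries. For Myc310 minus MYAZ16.1e the differences past the threshold were -0.95 for Hspa1a, -0.63 for Hspa1b, -0.38 for Hspa8, -0.18 for Hsp90ab1, 0.39 for Dnajb1, 0.40 for Hspb1 and 0.27 for Hspb8. For LM1 minus MYAZ16.1e they were -0.26 for Hspa8, 0.0628 for Hsp90aa1, -0.21 for Hsp90ab1, 0.66 for Dnajb1, 0.42 for Bag3, 1.44 for Hspb1 and 0.93 for Hspb8. For LM1-LM minus MYAZ16.1e they were 0.25 for Hspa1b, -0.22 for Hspa8, 0.11 for Hsp90aa1, -0.21 for Hsp90ab1, 0.68 for Dnajb1, 0.51 for Bag3, 1.43 for Hspb1 and 1.26 for Hspb8. The value for Hspa1b (adjusted p = 0.04 in edgeR) was lost under 5 of 10 alternatives, among them without the second or the third replicate of each group.

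For LM1 minus Myc310 the differences were 0.73 for Hspa1a, 0.75 for Hspa1b, 0.12 for Hspa8, 0.0947 for Hsp90aa1, 0.28 for Dnajb1, 0.42 for Bag3, 1.04 for Hspb1 and 0.67 for Hspb8. Of these, Hsp90aa1 was lost under 3 of 11 alternatives (upper-quartile scaling, and without the second or the third replicate of each group), Hspa8 under 4 of 11 alternatives, among them without the first or the second replicate, and Hspa1a and Dnajb1 under 1, without the third replicate. For LM1-LM minus LM1 the value was 0.33 for Hspb8.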

How the results depend on the processing

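Of the values for single genes under the alternatives, 1701 kept direction and side of the threshold, 97 were no longer past it, 15 passed it newly and 1 changed sign: Hsp90aa1 in LM1 minus MYAZ16.1e, -0.0175 with upper-quartile scaling against 0.0628 with TMM. Counts of the 10 genes past the threshold stayed within 1.5 times the main count, apart from the following. Without the third replicate of each group, 5 passed for LM1 against Myc310 in response (8 with all libraries) and 5 for LM against MYAZ (8). Without the first or without the second replicate, 2 passed for NDI1 (4 with all libraries) and 0 for LM1-LM against LM1 in response (1, with 2 at an unadjusted p under 0.05 in edgeR in each case). Against MYAZ in control medium, counts summed per line gave 0 for Myc310 (edgeR, 3 at an unadjusted p under 0.05), 3 for LM and 4 for LM-LM, and voom with line as random block gave 3 for Myc310 (20.4% of all genes) and 5 for LM (34.5%). Over left-out replicates and lines the counts ran from 9 to 9 for deprivation in LM1, 9 to 10 in LM1-LM, 10 to 10 in MYAZ16.1e and 8 to 9 in Myc310. They ran from 5 to 7 for LM1 against Myc310 in response, from 0 to 1 for LM1-LM against LM1, from 6 to 7 for LM1 and 7 to 8 for LM1-LM against MYAZ16.1e, and 7 to 7 for Myc310. In control medium they ran from 5 to 9 for Myc310, 5 to 8 for LM and 7 to 9 for LM-LM, and from 2 to 3 for NDI1. Replicate numbers did not pair the libraries (correlations of same-numbered deviations from -0.388 to 0.301), and a replicate block in the model left all counts as they were except that of LM-LM against MYAZ (8 against 9, Hspb8 being lost). The cause of these changes was not tested.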
